A study of Andropogon gerardi with 32 samples.

Results

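Among leaf transcripts of big bluestem, 125 microarray probes lay lower under altered than under ambient rainfall, relative to the median difference of each array. This held for each probe on all arrays that measured it, or on all but 1. The 125 were drawn from 10447 probes. Of these, 2518 gave a difference between the rainfall groups on at least 14 of 16 arrays and so could be chosen. For each array the log2 intensity of the altered sample minus that of the ambient sample was taken, the median difference of all probes on that array was subtracted, and a probe was kept if this centred difference was below 0 on every array or on every array but 1. The rule was met by 126 probes (5% of the 2518). A probe of Cab-m7 was left out, as any of MPK4 would have been. The probes were thus chosen by their altered minus ambient differences, which are given as a description and without a test.

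Big bluestem (Andropogon gerardii) is a perennial C4 grass that dominates tallgrass prairie, where the timing of rain sets how long the soil stays dry between wettings. In drying soil grasses close their stomata and change the level of many leaf transcripts, with genes of photosynthesis and growth often lower and protective genes often higher. RAMP, the name the series carries, is that of a field experiment in which shelters collect rain and return it in fewer and larger events; the labels used here say only that rainfall was altered.

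Total RNA of leaves was measured in 16 samples from plots or plants under altered rainfall and in 16 under ambient rainfall, and the labels give no age, genotype, date or dye. Each ramp number in the titles occurs once per group, and for all 16 numbers the same spots are empty in both samples, so the samples of a number were taken as the channels of 1 array. Whether samples of a group came from separate plants or plots is not always stated, and the p-values cover only the variation among the samples at hand, which may be technical. A spotted probe reports a transcript through its hybridization. The gene symbols are of the kind used for maize, and a symbol names the annotation of a probe, not a transcript of big bluestem that was checked.

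The number of spots with a value ran from 1833 on number 7 to 9530 on number 2. The deposited intensities were whole numbers (within 1e-06) in only 1 channel of 15 arrays, and the other channel was taken to have been multiplied by a factor: the altered one on 11 arrays and the ambient one on 4, with both channels whole on number 7. No label states this step. On 14 of 16 arrays the brightest spots of the channels lay within 5% of each other. Sample medians nevertheless ran from 4.25 to 8.62 on the log2 scale. Where the bright spots of an array match and its medians do not, a bright probe sits away from the median difference. For this reason the differences are also given after within-array loess, which removes the part of the difference that follows brightness. The median difference of all probes before centring was highest on number 7 (2.65), number 10 (2.37) and number 2 (2.21).

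Of the 125 probes, 78 had a difference on all 16 arrays, 25 on 15 and 22 on 14. The centred difference was below 0 on every array for 69 of them, 51 of which were measured on all 16, while 56 had 1 exception. The same rule turned the other way found 35 probes higher under altered rainfall (1.39% of the 2518), 6 of them without an exception. The median over arrays of a probe's centred difference was -2.02 log2 units at the middle of the 125, a level 4.04-fold lower under altered rainfall, and ran from -3.75 (13.4-fold) to -0.61 (1.53-fold). It was beyond -2 for 63 probes and beyond -3 for 13, and 8 lay within 1 log2 unit of 0. For all 2518 probes the corresponding middle value was -0.01.

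After loess the middle value for the 125 was -1.72 (3.30-fold lower), against 0.05 for all 2518 probes, and the median over arrays was below 0 for all 125. The full rule was met by 92 of the 125 after loess, where it was met by 129 probes in all (5.12%), and by 96 after quantile normalization between samples. That each median stayed below 0 follows nearly from the rule, which used the same arrays, and is no support for the label of the set. The count of arrays behind 33 probes depended on subtracting the array median rather than loess.

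At the edge of the rule, 93 probes lay at or above 0 on 2 arrays and were left out, with a middle difference of -1.21, next to -1.61 for the 56 with 1 exception and -2.22 for the 69 with none. Just inside, probes 242, 1024, 2771, 3058 and 3559 were below 0 on 13 of 14 arrays, with median differences between -2.93 (probe 3058) and -0.81 (probe 1024). Just outside, probes 1620, 2400, 3122, 3244 and 3767 (LOC542052) were below 0 on 14 of 16, with differences between -1.31 (probe 1620) and -0.79 (probe 2400). The cut thus falls within a continuous range of differences.

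The arrays differed in how far the 125 probes lay below the rest. The median centred difference of the set was -6.36 on number 7, -3.29 on number 2, -3.23 on number 11 and -2.90 on number 15. It was -0.69 on number 3, -1.01 on number 4, -1.13 on number 10 and -1.25 on number 17, and the other 8 arrays lay between these. On number 3 that median stood at percentile 37.2 of all probes of the array, and on number 2 at percentile 2.75, with percentile 11.1 as the middle of the 16 arrays. Exceptions, of which the rule allows at most 1 per probe, were unevenly spread over the arrays. At or above 0 were 21 probes on number 17, 14 on number 10, 10 on number 3 and 5 on number 9. There were 3 on number 2, 2 on number 14 and 1 on number 4, and the other 9 arrays had none. The exceptions were mostly small, at a middle value of 0.42 and a highest of 1.56 log2 units, with 31 of 56 below 0.5 and 10 above 1.

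On number 10 the set lay below 0 or not depending on the treatment of the array. Its centred median was -1.13, but after loess it stood at 0.06 with 52 of 125 probes below 0, and after quantile normalization at 0.10. The median of the set also moved on number 2, to -1.96 after loess and -1.58 after quantile normalization, where the centred value was -3.29. On the other 15 arrays the loess median of the set was below -1. On number 7 the channels correlated at r = -0.31 and spots with a value were fewest, and the set had the lowest value on either scale (-6.36, and -5.26 after loess), with all 91 measured probes below 0. Whether the scaling of the channels had a part in the values of these arrays was not tested.

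**Figure D1:**
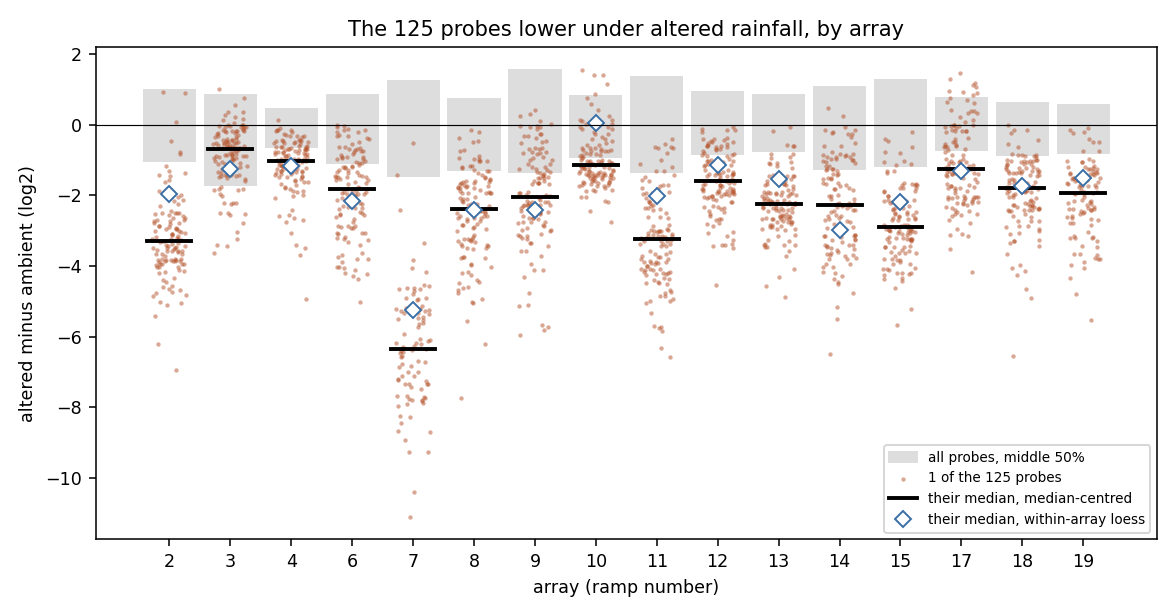
Altered minus ambient log2 intensity (y axis) of the 125 probes on each of the 16 arrays (x axis, ramp number). Points are probes, black lines their median after subtraction of the array median, open diamonds their median after within-array loess, and grey boxes the middle 50% of all probes; the set lies lowest on number 7 (-6.36), and on number 10 the loess median is 0.06 where the centred one is -1.13.

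The sample descriptions have 3 wordings, which follow numbers 2 to 6, 7 to 10 and 11 to 19. The middle difference of the 125 probes was -1.54 in the first set (4 arrays), -2.05 in the second (4 arrays) and -2.04 in the third (8 arrays). After loess these values were -1.51, -2.18 and -1.73. By the channel taken to have been multiplied, the middle was -1.69 where it was the altered one (11 arrays) and -2.33 where it was the ambient one (4 arrays), or -1.62 and -1.78 after loess. That each is below 0 follows from the rule. The labels do not say which dye marked which rainfall group, and if the dyes were never exchanged, a dye effect of a probe and an effect of rainfall cannot be told apart.

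As normalized log2 intensities (quantile normalization between samples), the 125 probes were bright under ambient rainfall and spread over the range under altered rainfall. The middle of their group means was 6.95 under altered and 8.94 under ambient rainfall; for the other 2393 probes it was 7.56 under altered and 7.42 under ambient rainfall. The median probe of the set stood at percentile 65.0 of its sample under altered rainfall and at percentile 92.1 under ambient rainfall. Under altered rainfall 46 of the 125 were below the 50th percentile and 21 below the 25th, whereas none was below the 50th and 114 were above the 75th under ambient rainfall. These percentiles are among all spots with a value, and the counts were not made for the other 2393 probes. Levels near the middles of those probes are high too: the median of probe 4523 under altered rainfall, 7.53, stood at percentile 74.2. The difference between the groups in these counts follows in part from the rule. Bright probes were more often in the set: with the 2518 divided into 4 equal classes by mean level, it held 3.33%, 3.82%, 5.09% and 7.62% of them, from dim to bright. Centred differences ran the other way, with a middle of -2.46, -2.24, -2.15 and -1.61 for the members of those classes. After loess the order was not steady, at -1.81, -1.95, -1.88 and -1.47. The mean level includes the altered samples, so a larger fall by itself moves a probe towards a dimmer class. An intensity of 0 was recorded for members 2 times in altered and 0 times in ambient samples, and for the other 2393 probes 11 times in altered and 33 times in ambient samples.

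Samples under altered rainfall also differed more among themselves at these probes. The SD between samples was higher under altered rainfall for 125 of 125 members, with a middle of 1.44 log2 units under altered and 0.70 under ambient rainfall. For the other probes it was higher in 1212 of 2393 (50.6%), with middles of 0.90 under altered and 0.89 under ambient rainfall. Without number 7 the count was 122 of 125 (SD 1.25 under altered and 0.71 under ambient rainfall), and without numbers 7, 9 and 19 it was 121; of the other probes it was then 49.4% and 60.1%. With median centring of the samples it was 104 of 125 (SD 1.45 under altered and 1.11 under ambient rainfall), 78 without number 7 and 75 without numbers 7, 9 and 19, and of the other probes it was 32.8%, 33.6% and 25.8% in the same order. These settings for the spread were chosen after seeing the data. The wider spread under altered rainfall was thus seen at fewer members when samples were centred and number 7 was left out. No test was run on the spread, since it comes from the values that chose the probes.

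**Figure D2:**
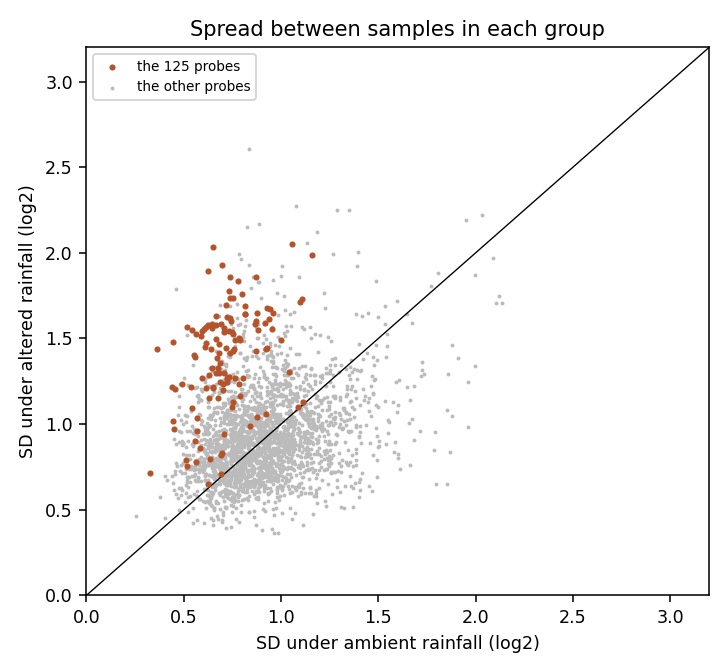
SD between samples under altered rainfall (y axis) against SD under ambient rainfall (x axis), in normalized log2 units, for the 125 probes (coloured) and the other 2393 (grey), with the line of equality. All 125 lie above the line, and the other probes lie on either side of it.

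The differences of the members, which are those that chose them, were correlated across arrays, with number 7 included where it was measured. Correlations were taken for pairs that shared at least 14 arrays. Over such pairs of members the middle correlation of centred differences across arrays was r = 0.63. Over such pairs of the 2518 probes it was r = 0.29. Of all 7750 pairs of members 89.8% had a correlation above 0, where pairs that shared fewer arrays count as not above 0. After loess the middle was r = 0.58 for pairs of members and r = 0.01 for pairs of the 2518 probes, again among pairs that shared at least 14 arrays. The points are the same 14 to 16 arrays for every pair, and number 7 lies far from the rest. How much of the correlation rests on number 7 was not tested.

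A gene symbol was attached to 16 of the 125 probes (12.8%), against 251 of the 2518 that could be chosen (9.97%) and 728 of all 10447 (6.97%). The 16 probes belong to 13 symbols, and 12 of these are locus numbers without a description of function in the annotation used here. Among the 51 probes with a symbol other than a locus number, 11 could be chosen and 2 met the rule, ATP-D and the Cab-m7 probe that was left out, and none met the rule turned the other way. Of the 14 such symbols listed for comparison (the photosynthesis genes Cab-m7 and pgr5, the chlorophyll breakdown gene lls1, the stress genes hsp70-4 and MPK4, the oxylipin genes opr5 and opr8, the tubulin gene tua4, the chromatin genes HDA108, mbd101 and mbd109, and TCTP, PLTP and ATP-D), 8 probes could be chosen, and their middle centred difference was -0.23.

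LOC541685 (probe 6687) separated the groups fully. Its normalized log2 level had a lowest, median and highest value of 2.43, 5.18 and 6.71 under altered rainfall, against 7.15, 8.11 and 8.87 under ambient rainfall. The highest altered value lay under the lowest ambient one, which was so for no other of the 2518 probes (1 probe, 0.0397%). Its centred difference ran from -7.97 on number 7 to -1.64 on number 9, with a median of -3.14 (-2.80 after loess) and values below 0 on 16 of 16 arrays on the centred, loess and quantile scales. Its mean level was 4.94 ± 1.04 under altered and 7.99 ± 0.57 under ambient rainfall (SD, n = 16 each). LOC541685 was dim for this set, the 116th of 125 by mean level.

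LOC542368 (probe 4516) had the largest median difference of the set, -3.75 (-3.10 after loess). Its level had a lowest, median and highest value of 2.96, 4.99 and 8.54 under altered rainfall, against 6.56, 8.24 and 9.19 under ambient rainfall, so that the groups overlapped at the top. The overlap came with numbers 2, 3, 4, 10 and 17, where the altered samples were between 7.09 and 8.54. Number 17 was also its exception, with a difference of 0.86, while number 7 gave -7.79. The means were 5.38 ± 1.93 under altered and 8.29 ± 0.70 under ambient rainfall (SD, n = 15 each).

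ATP-D (probe 4774), for which the annotation gives the symbol and no description, was below 0 on 16 of 16 arrays. Its level had a lowest, median and highest value of 1.95, 6.42 and 9.44 under altered rainfall, against 6.59, 8.67 and 9.58 under ambient rainfall. The lowest altered value was that of number 7 and the highest that of number 10, where the altered sample (9.44) stood above the ambient one (9.08). The median centred difference was -2.37 (-2.27 after loess), and the means were 6.28 ± 1.62 under altered and 8.56 ± 0.74 under ambient rainfall (SD, n = 16 each).

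LOC542716 was represented by 2 probes, both members. Probe 9183 had a lowest, median and highest level of 3.77, 7.29 and 9.68 under altered rainfall, against 6.96, 9.42 and 10.53 under ambient rainfall. Probe 4343 had 4.56, 8.16 and 9.96 under altered rainfall, against 8.17, 10.05 and 10.51 under ambient rainfall. Their median differences were -2.27 and -2.04, both below 0 on 16 of 16 arrays (15 after loess), and number 10 was again the array whose altered samples were highest. Across the 16 arrays the differences of the 2 probes correlated at r = 0.95 (0.94 after loess), with a median gap of 0.39 log2 units. The probes may share sequence, which was not examined here.

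LOC542212 had 3 probes, of which 2 were members. Probe 2163 had a lowest, median and highest level of 4.45, 9.54 and 11.19 under altered rainfall, against 8.94, 10.62 and 11.51 under ambient rainfall, and probe 756 had 5.29, 10.29 and 12.03 under altered rainfall, against 9.42, 11.26 and 11.86 under ambient rainfall. The groups overlapped widely at both. Their median differences of -1.61 and -1.54 (-1.17 and -1.08 after loess) were below 0 on 15 of 16 arrays, with number 3 the exception for both, and correlated at r = 0.91. The third probe, 4812, was below 0 on 14 of 16 arrays, with a median of -1.64, and so missed the rule by 1 array.

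LOC542627 had 2 probes, both members, and they ran less closely together (r = 0.47 over 15 arrays, 0.54 after loess). Probe 5905 had a lowest, median and highest level of 5.35, 7.77 and 8.90 under altered rainfall, against 7.31, 8.82 and 9.96 under ambient rainfall, and probe 2423 had 4.11, 6.50 and 7.58 under altered rainfall, against 6.77, 7.82 and 8.51 under ambient rainfall. The median differences were -1.78, with number 14 the exception, and -1.59, with none.

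LOC542605 (probe 6935) was the brightest of the probes with a symbol and the 5th of the 125 by mean level. Its level had a lowest, median and highest value of 9.21, 10.53 and 11.76 under altered rainfall, against 11.27, 12.11 and 12.50 under ambient rainfall. It varied little for this set, with means of 10.45 ± 0.72 under altered and 12.02 ± 0.32 under ambient rainfall (SD, n = 16 each), and only the altered samples of numbers 4 and 10 (11.36 and 11.76) reached the ambient range. The median difference was -1.82 (-1.71 after loess), below 0 on 16 of 16 arrays. The other probes of LOC542605 were measured on fewer arrays: probe 5773 was below 0 on 6 of 9 with a median of -1.06, and probe 6716 on 1 of 4 with a median of 0.56, so the probes of this symbol did not run alike.

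**Figure D3:**
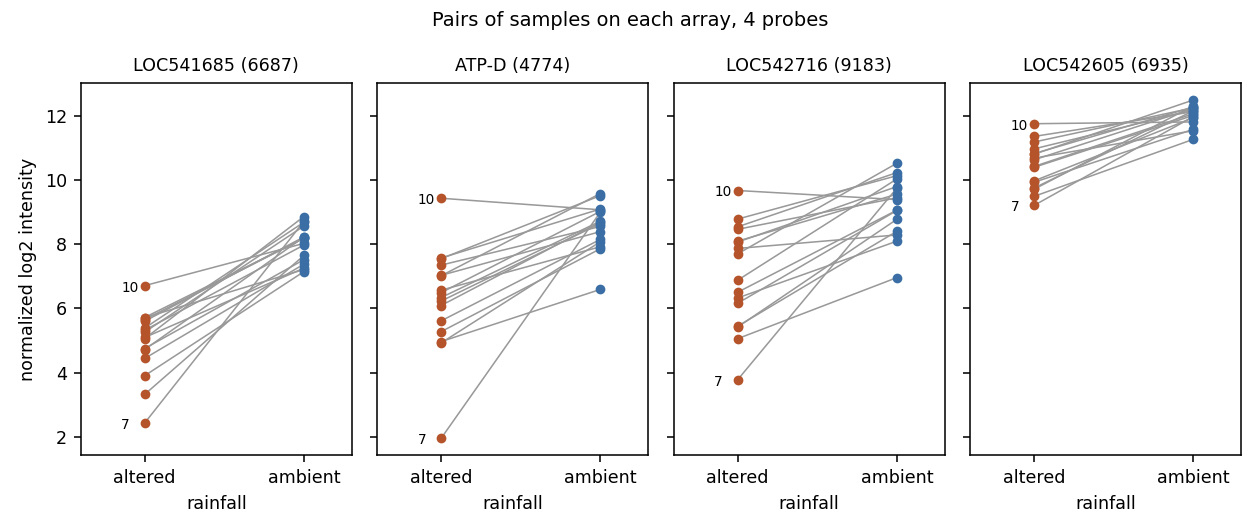
Normalized log2 intensity (y axis) of the altered sample (left) and the ambient sample (right) of each array, joined by a line, for LOC541685, ATP-D, LOC542716 (probe 9183) and LOC542605; numbers 7 and 10 are marked at the altered sample. The groups are apart for LOC541685 (highest altered 6.71, lowest ambient 7.15), and at all 4 probes number 7 has the lowest altered value and number 10 the highest.

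LOC542320 (probe 10978) and LOC541791 (probe 10316) were also bright. LOC542320 had a lowest, median and highest level of 5.57, 9.79 and 11.58 under altered rainfall, against 10.36, 11.66 and 12.45 under ambient rainfall. LOC541791 had 5.68, 9.98 and 11.41 under altered rainfall, against 10.35, 11.50 and 12.04 under ambient rainfall. Their median differences were -2.02 on 16 of 16 arrays below 0, and -1.72 on 15 of 16, the exception being number 9 at 0.02. In both, the altered group reached into the ambient range and extended far below it.

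LOC542500 (probe 4362) was dim and had a lowest, median and highest level of 3.99, 5.13 and 6.87 under altered rainfall, against 6.12, 7.26 and 8.17 under ambient rainfall. It was below 0 on 13 of 14 arrays, with a median of -2.24 (-1.72 after loess) and number 10 the exception at 0.10. After loess it was below 0 on all 14. Its spread was small, with means of 5.16 ± 0.78 under altered and 7.27 ± 0.56 under ambient rainfall (SD, n = 14 each).

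LOC542603 (probe 907) had a lowest, median and highest level of 3.95, 7.77 and 9.66 under altered rainfall, against 7.29, 9.18 and 10.41 under ambient rainfall, with a median difference of -1.66 on 16 of 16 arrays below 0. Its other probe, 8517, was below 0 on 13 of 15 with a median of -1.95. LOC542227 (probe 5086) had 4.71, 6.13 and 7.42 under altered rainfall, against 6.21, 7.22 and 8.29 under ambient rainfall, and a median of -1.32 on 15 of 15. Its other probe, 8169, was below 0 on 10 of 11 arrays (median -1.62) and had too few arrays to be chosen. LOC541622 (probe 9506) had 4.49, 8.09 and 10.17 under altered rainfall, against 7.81, 9.37 and 10.62 under ambient rainfall, a median of -1.37, and an exception of 1.01 on number 3. After loess probe 9506 had a median of -1.23 and was below 0 on 13 of 16 arrays. Probe 5833 of LOC541622 was below 0 on 14 of 16 (median -1.60), and probe 6978 had a difference on 1 array only, at -1.18. Of the 7 probes of the 13 symbols that are not members, 6 had a median below 0, where 49.6% of the 10418 probes with a difference did; 3 of the 7 could have been chosen, all with a median below 0, against 50.6% of the 2518.

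**Figure D4:**
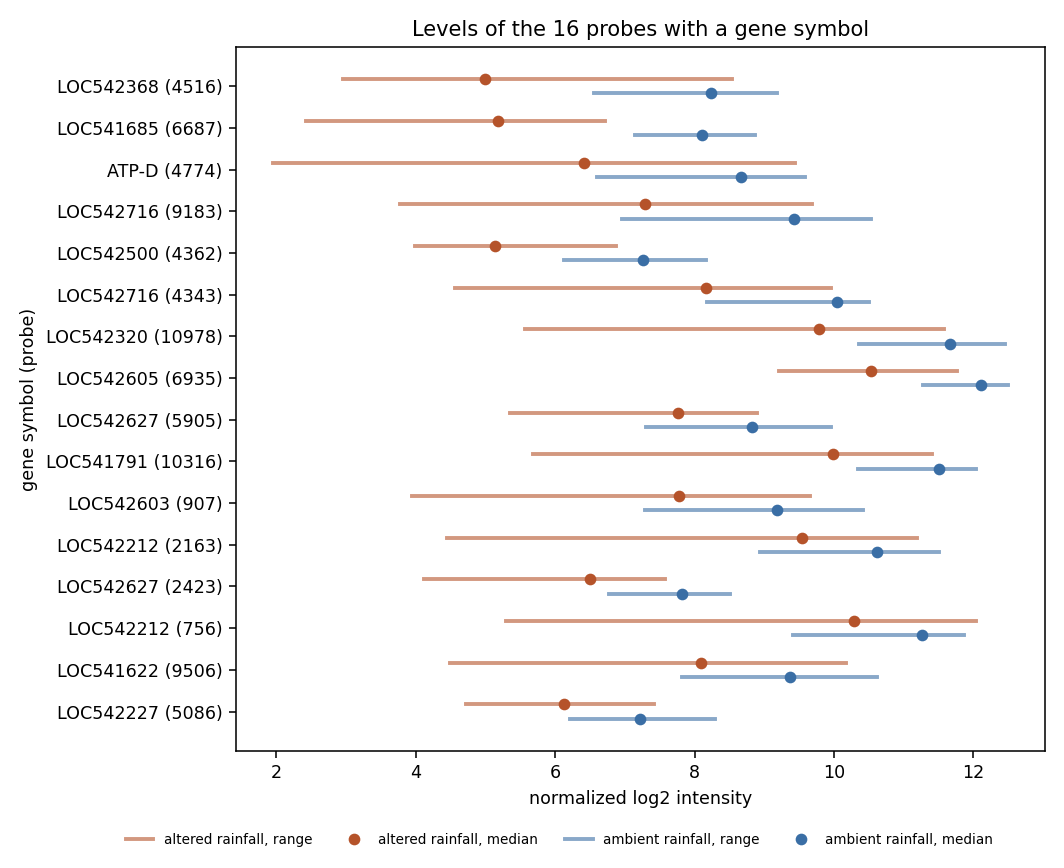
Lowest to highest value (lines) and median (points) of the normalized log2 intensity (x axis) of the 16 members with a gene symbol (y axis, with probe number), altered rainfall above ambient rainfall, ordered by median difference from LOC542368 (-3.75) down to LOC542227 (-1.32). The altered ranges are longer than the ambient ones and reach lower; only at LOC541685 do the ranges not meet.

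The other 109 members carried no symbol. The largest differences among them were those of probe 11922 (-3.69), probe 6868 (-3.63), probe 6108 (-3.42), probe 8812 (-3.40), probe 4398 (-3.34), probe 788 (-3.23), probe 1548 (-3.22), probe 11053 (-3.20), probe 11139 (-3.15), probe 6819 (-3.11), probe 12059 (-3.05) and probe 7666 (-2.99). All but probe 6819, whose exception was number 10, were below 0 on every array. After loess these medians lay between -3.57 (probe 11922) and -1.99 (probe 6819). Probe 11922 had a lowest, median and highest level of 3.19, 6.17 and 10.32 under altered rainfall, against 7.68, 10.46 and 11.61 under ambient rainfall. Probe 8812 had 3.95, 8.14 and 10.96 under altered rainfall, against 9.57, 11.44 and 12.65 under ambient rainfall, and stood at percentile 83.8 of its sample under altered and at percentile 99.3 under ambient rainfall. It thus combined a large difference with a high level. Probe 4398 gave the lowest single value of the set, a centred difference of -11.1 on number 7.

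The brightest members were probes 2589, 11920, 5326, 4555, LOC542605 (probe 6935) and probe 755. Probe 2589 had a lowest, median and highest level of 9.63, 12.34 and 13.67 under altered rainfall, against 10.90, 12.89 and 13.67 under ambient rainfall. Its median difference was -1.11, and -0.54 after loess with 13 of 16 arrays below 0, so it met the rule on the centred scale and not after loess. Probe 11920 differed by -1.49 (-1.09 after loess), probe 5326 by -1.50 (-1.34), probe 4555 by -1.49 (-0.91) and probe 755 by -1.61 (-1.58). Number 17 was the exception for probes 2589, 11920 and 5326, at 0.72, 0.62 and 0.75.

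In a test across the whole table (limma, adjusted p under 0.05), 107 of the 125 members were called lower under altered rainfall, where 318 of 6384 probes (4.98%) were called lower in all and 181 of the 2518 (7.19%). The rule used this contrast, so the count adds nothing to the choice of the probes.

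To measure the same difference in arrays that had no part in the choice, the rule was applied to numbers 11 to 19 alone (below 0 on all or all but 1 of at least 7 of 8 arrays), and altered was compared with ambient rainfall in numbers 2 to 10. This chose 431 of 2720 probes, 121 of which are among the 125. The 125 themselves were chosen with numbers 2 to 10 included, so the counts below are no separate support for them. In numbers 2 to 10 the fitted change was below 0 for 341 of the 431 (79.1%), against 910 of the 2715 tested probes that could have been chosen (33.5%), and the middle change was -0.76 against 0.26 log2 units. By the test, 36 (8.35%) were called lower (limma, adjusted p under 0.05) and 0 higher, against 37 of these 2715 (1.36%) and 65 of all 7641 probes tested (0.851%) called lower. An unadjusted p under 0.05 with a change below 0 was reached by 144 (33.4%), against 6.41% of those that could have been chosen. With median centring 9 were called, and with the ramp number as a block 0 were (176 at an unadjusted p under 0.05), so calls of single probes in these 8 arrays depended on the fit. Numbers 7, 9 and 10 are among these arrays. If the dyes were never exchanged, a dye effect of a probe would recur in both sets of arrays, as would an effect of rainfall. The comparison cannot tell them apart, and whether the scaling of the channels had a part was not tested.

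The choice in numbers 2 to 10 and the test in numbers 11 to 19 gave more calls. Of 354 probes chosen there, 341 were tested, and the fitted change was below 0 for 323 of them (94.7%), against 1692 of 3448 (49.1%). The test called 117 (34.3%) lower and 0 higher, against 155 of 3448 (4.5%) and 195 of all 5793 probes tested (3.37%) called lower, and the middle change was -1.16 against 0.01 log2 units. With the block 101 were called and with median centring 115. The probes chosen in numbers 2 to 10 include all 125 members, whose own choice used numbers 11 to 19 as well. The limit on telling a dye effect from rainfall holds here too. After loess the middle difference of the chosen probes in the arrays that did not choose them was -0.76 in numbers 2 to 10 (0.06 for all that could be chosen) and -0.99 in numbers 11 to 19 (0.00).

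Among the probes chosen in numbers 11 to 19, 42 had a symbol, and 4 of these were called lower in numbers 2 to 10. Of the 42, 16 are members, whose choice over all 16 arrays used numbers 2 to 10 as well. The other 26 had 0 calls, and 18 of them changed below 0. This split between members and others follows in part from the rule. The p-values of the members below are no separate support for them. LOC541685 (probe 6687) changed by -2.93 ± 0.47 (SE) log2 units (limma, adjusted p = 0.0033), LOC542368 (probe 4516) by -2.63 ± 0.57 (adjusted p = 0.026), LOC542500 (probe 4362) by -1.90 ± 0.43 (adjusted p = 0.035) and LOC542605 (probe 6935) by -1.61 ± 0.38 (adjusted p = 0.040). ATP-D changed by -2.58 ± 0.69, which missed the threshold (limma, adjusted p = 0.061). These values are from the fit without the ramp number as a block, and with the block none of these probes passed.

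Among the probes chosen in numbers 2 to 10, 40 with a symbol were tested in numbers 11 to 19, and 16 of them are members. Of the other 24, 22 changed below 0 and 0 were called lower. Called lower were 12 probes, all members. Their choice over all 16 arrays used numbers 11 to 19 as well, so the split from the other 24 follows in part from the rule. The p-values of the 12 are thus no separate support for them. The 12 included the same 4, with LOC541685 at -3.14 ± 0.36 (SE, limma, adjusted p = 1.56e-05) and LOC542500 at -2.28 ± 0.36 (limma, adjusted p = 0.00043). ATP-D changed by -1.98 ± 0.39 (limma, adjusted p = 0.0030), probes 4343 and 9183 of LOC542716 by -2.14 ± 0.42 and -2.33 ± 0.47 (adjusted p = 0.0025 and 0.0030), and LOC542320 by -1.67 ± 0.37 (adjusted p = 0.0074). LOC541791, LOC542227, LOC542603 and probe 2423 of LOC542627 passed as well, at changes between -1.66 and -1.39. Of LOC542212, probes 756 and 2163 did not pass in either set of 8 arrays (changes of -1.74 and -1.69 in numbers 2 to 10, and of -0.88 and -1.05 in numbers 11 to 19), nor did probe 4812 (-1.71 and -1.10). The values of single probes are again from the fit without the block, which does not pair the samples of a number. Those with the block are not given here.

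**Figure D5:**
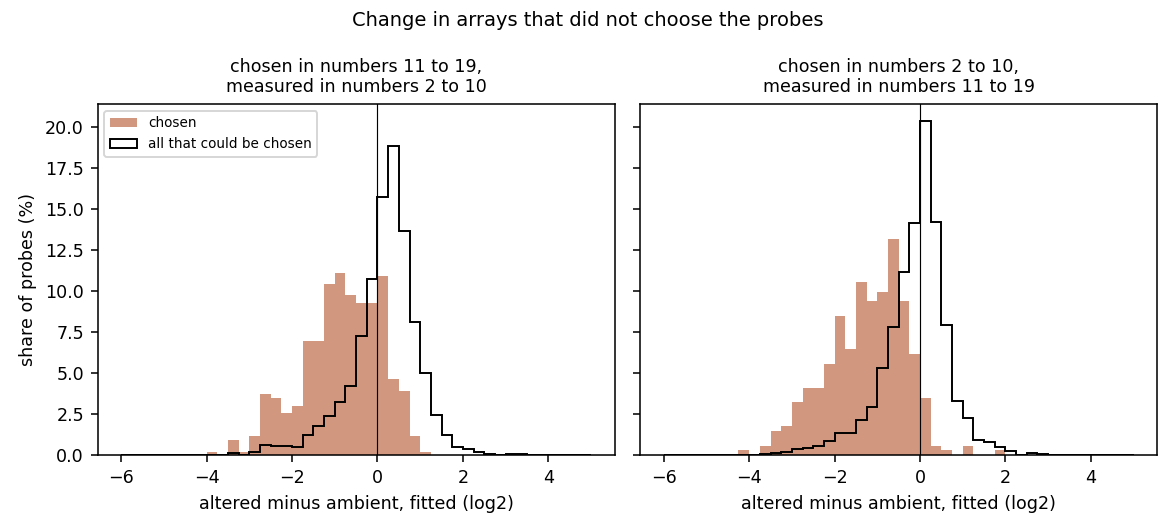
Share of probes (y axis) by fitted change, altered minus ambient in log2 units (x axis), in the 8 arrays that did not choose them; filled bars are the probes chosen in the other 8 arrays and the outline is all probes that could have been chosen. The chosen probes lie left of the outline in both panels, with middles of -0.76 against 0.26 and of -1.16 against 0.01.

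The level of the members, averaged over the altered and ambient sample of each array, does not use the contrast that chose them and was compared over the 3 wordings of the description. The middle level of the 125 was 8.63 in numbers 2 to 6, 7.76 in numbers 7 to 10 and 7.61 in numbers 11 to 19, against 7.84, 7.36 and 7.34 for all 2518 probes. No member was called (moderated F-test in limma, adjusted p under 0.05), nor was any of the 2518 (0%). An unadjusted p under 0.05 was reached by 30 members (24.0%), against 13.1% of the 2518, and with median centring by 7 (5.60%), against 3.57%. Without numbers 7, 9 and 19 it was reached by 49 members (39.2%), against 12.8% of all 3852 probes tested, again with no call; the middle level of the members was then 8.79, 8.90 and 7.86 in the same order of sets, so the second set no longer lay below the first. A difference in the level of these transcripts between the sets was thus not shown.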

How the data were processed

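The authors deposited spot intensities on a linear scale, 1 column per sample; scanning, flagging and background correction are not given in the sources used here. Intensities at 0 (1509 of 194148, 0.777%) were set missing and the rest taken as log2. Levels were quantile normalized between samples (limma 3.58.1, R 4.3.3), and loess ratios used a span of 0.4. Tests were two-sided fits in limma (lmFit, eBayes), and p-values were adjusted over every probe in the test by the Benjamini-Hochberg method. Tested were probes with at least 8 values per group, or at least 4 per group in tests within 8 arrays. They were run on simulated arrays beforehand. The number of arrays, and of spots with a value, limits the precision. Gene symbols came from the platform annotation, which paired 728 probes with 1 symbol each, none with several, and left 9719 unnamed here.

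The members, lists and tests were chosen with earlier results of these data known. Members named are all with a symbol, the 12 without one that differed most, the 6 brightest, and 5 on either side of the threshold. No reference sequence of the probes was used here. Other settings tried were quantile, loess and no normalization, log2(value + 1), a floor at the 5th percentile, other array minimums, the replicate block, and arrays left out.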

Additional observations from a re-analysis of the deposited data

Results flagged for a closer look

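Within the 3 sets of arrays that share a wording of the description, 101 groups of 4 to 8 values were examined for 1 value far from the others, for which chance alone flags about 1 in 20, and 2 such values were found. The difference of probe 2163 (LOC542212) was -7.43 on number 7, where the nearest of the other 3 arrays of its set was at -1.18. The difference of probe 4362 (LOC542500) was -0.60 on number 4, where the nearest of the other 3 arrays was at -2.89. Number 7 gave the lowest difference of all arrays for 82 of the 91 members it measured.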

How the results depend on the processing

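The count of 125 probes was 123 with quantile normalization (96 shared) and 128 with within-array loess (92 shared). It was 150 with at least 12 arrays, 176 without numbers 7, 9 and 19 (183 with loess as well, a setting chosen after seeing the data), and from 125 to 167 with single numbers left out. It was 64 on the deposited values with no subtraction, 69 with no exception allowed and 218 with 2. The middle difference ran from -2.11 to -1.90 with single numbers left out and was -1.53 on the deposited values; its direction when numbers are left out is fixed by the rule and is no sign of stability. The 33 members followed singly were below 0 in all 5 settings tried for them, 1 of which only leaves out arrays. The whole table gave 576 calls and 107 members called lower, 588 and 118 with the replicate block, 343 and 62 without normalization, and from 456 to 619 and from 101 to 115 with single numbers left out. Deviations of the samples of a number from their group means correlated at r between -0.12 and 0.73 (above 0.1 for 14 of 16 numbers, over 894 probes), and 12 of 16 altered samples were closest to the ambient sample of their own number, a hint from the data and not from the labels. Probes chosen in numbers 11 to 19 gave 36 calls in numbers 2 to 10, 9 with median centring and 0 with the replicate block; the cause was not tested. For the level over the 3 sets, ambient samples alone gave 3 called probes where both together gave 0, and no member.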
